A study of Ovis aries with 22 samples.

Results

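HMCN2, CPNE5, LSAMP, NTNG2, ACSBG2 and HSD17B3 are 6 genes of unrelated families whose transcripts were low in the sinus wall of the pulmonary autograft of sheep. They were chosen by their measured falls in the autograft, so their levels there are described below and not tested. All 6 were among the 26200 gene symbols counted, and all 6 were among the 14979 genes that passed the filter on low counts. HMCN2, LSAMP and NTNG2 reached the filter's level of 0.560 CPM in all 3 autograft libraries, while CPNE5, ACSBG2 and HSD17B3 did not and passed it through the native groups. In the Ross procedure the pulmonary root is moved into the aortic position, and the moved root is the pulmonary autograft. RNA was sequenced from autograft sinus of 3 sheep 6 months after that operation, from native aortic sinus of 4 sheep and from native pulmonary sinus of the same 4 sheep, named D3 to D6. The native animals are non-operated per the design text, but aortic sinus replicate 1, from animal D3, carries a surgery label. The strain, age and sex of the sheep were not given in the sources used here.

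The 6 genes act at different places of a cell. HMCN2 encodes hemicentin-2, a very large extracellular matrix protein with immunoglobulin-like domains, and hemicentin of Caenorhabditis elegans is known for joining tissues across adjacent basement membranes. CPNE5 encodes a copine, a cytosolic protein that binds phospholipid membranes when calcium rises. LSAMP, of the IgLON family, and NTNG2, netrin-G2, are anchored to the outer cell membrane by a lipid and are known from nerve cells, where they take part in adhesion and synapse formation. ACSBG2 encodes an acyl-CoA synthetase of the bubblegum family, which activates long-chain fatty acids. HSD17B3 encodes the steroid dehydrogenase that makes testosterone from androstenedione, best known from the testis. The sinus wall is mainly smooth muscle and matrix, and in bulk RNA of such a wall fewer cells of a type and less RNA per cell cannot be told apart.

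The 22 sample entries were 11 libraries sequenced in 2 runs, which were added, for 17380599 to 20741334 counts per library. On the first principal component, with 37.9% of the variance, autograft libraries lay between -72.8 and -37.2, aortic libraries between -8.46 and 30.6 and pulmonary replicates 2 to 4 between 29.5 and 67.6. Pulmonary replicate 1 lay at -9.34, just below the lowest aortic library and apart from the other pulmonary libraries, and autograft replicate 1 stood apart on the second component, at 64.1. The range of each member's fold change with single libraries or animal D3 left out is therefore given as well. The replicates are separate animals. Expression is given in CPM, counts scaled to a common library size, after TMM scaling, which adjusts library sizes for composition, and log2 fold changes carry a standard error (SE) from an edgeR quasi-likelihood fit over all genes.

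The members were chosen by falls in the autograft, and the contrast that chose most of them was that against pulmonary sinus. Genes that edgeR called at an adjusted p under 0.05, with a log2 fold change of -1 or lower, no overlap between the 2 groups and at least 5 CPM in the higher group, numbered 235. Among these, CPNE5, LSAMP, HMCN2 and ACSBG2 held ranks 1 to 4 by size of the difference, NTNG2 rank 7 and HSD17B3 rank 13. The members were thus not the 6 largest falls. PAPLN and CCDC33, at ranks 5 and 6 and log2 fold changes of -3.08 each, were not chosen. Nor were TPPP, at rank 8 and -2.61, or KBTBD12, LOC105603394, ATP2A3 and ABCG4, at ranks 9 to 12. LOC105612674 followed HSD17B3 at rank 14 and -2.41. Against aortic sinus, HMCN2 was rank 1, HSD17B3 rank 2 and ACSBG2 rank 6 of 99 such genes, while CPNE5, LSAMP and NTNG2 missed one of the criteria there. Every autograft library lay below every native library for 6 of 6 members, as it did for 7.18% of all genes tested. Against pulmonary sinus alone the count was 6 of 6, beside 11.2% of all genes, and against aortic sinus alone it was 6 of 6, beside 10.8%. EdgeR called 6 of 6 members lower against pulmonary sinus, where it called 5.29% of all genes lower and 6.05% higher, and 4 of 6 against aortic sinus, where it called 1.43% lower and 0.948% higher. With the animal as a random replicate block in limma-voom, 4 of 6 were called against pulmonary sinus, without HMCN2 and LSAMP, and 1 of 6, HSD17B3, against aortic sinus. Because these contrasts chose the genes, nothing is read from those counts.

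**Figure D1:**
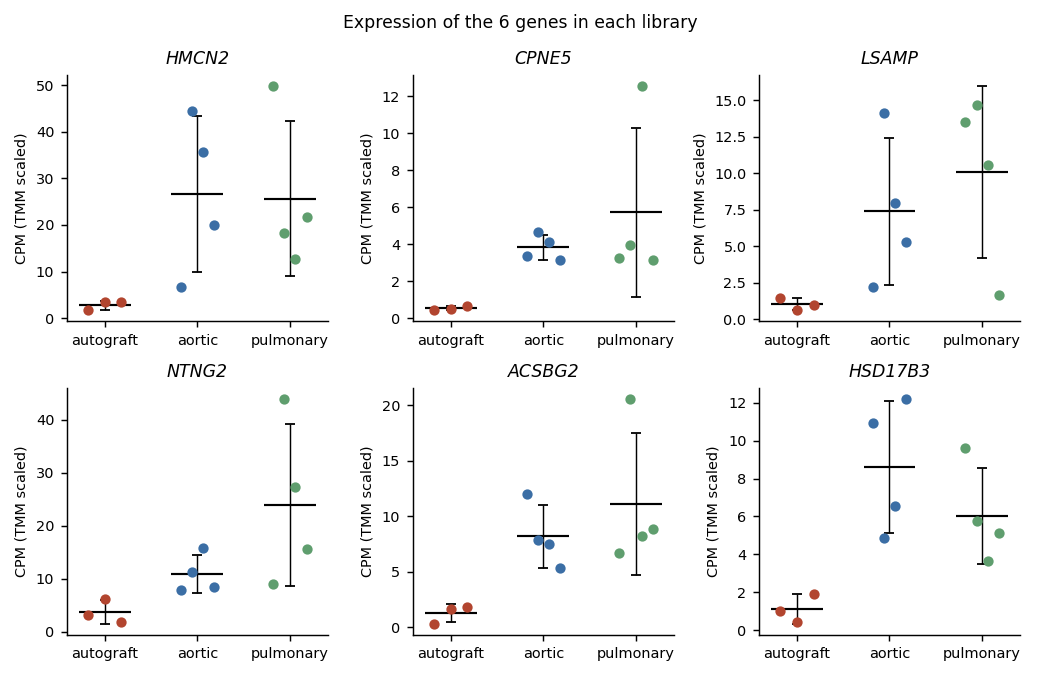
Expression of the 6 genes in each of the 11 libraries, in CPM on a linear axis, by group, with the autograft on the left; each point is 1 library, the horizontal line is the group mean and the bar is the SD. For every gene the 3 autograft libraries lie below all 8 native libraries, with the smallest gap for LSAMP, at 1.46 CPM in autograft replicate 1 and 1.66 CPM in pulmonary replicate 4.

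Hemicentin-2 transcripts were low in every autograft library. HMCN2 had 1.69, 3.38 and 3.35 CPM in autograft replicates 1 to 3, against 6.60, 44.4, 35.8 and 19.9 CPM in aortic replicates 1 to 4 and 49.9, 18.2, 12.8 and 21.7 CPM in pulmonary replicates 1 to 4. The autograft values lay close together, and the native values spread over a range of 7.56-fold. The highest and the lowest native value came from the same animal, D3, whose pulmonary library had 49.9 CPM and whose aortic library had 6.60 CPM, as the libraries are labelled. Over all genes, the aortic and pulmonary libraries of D3 and D4 correlated better across the 2 animals than within them, so whether these are libraries of 1 animal is uncertain. Group means were 2.81 ± 0.968 CPM in the autograft (SD, n = 3), 26.7 ± 16.8 CPM in aortic sinus and 25.7 ± 16.6 CPM in pulmonary sinus (SD, n = 4 each). The log2 fold change of the autograft was -3.19 ± 0.68 (SE) against pulmonary sinus and -3.25 ± 0.68 against aortic sinus. It lay between -3.42 and -2.64 against pulmonary sinus, and between -3.57 and -2.88 against aortic sinus, when single libraries or animal D3 were left out.

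The related hemicentin gene moved the other way. HMCN1 had 27.1, 22.2 and 15.7 CPM in autograft replicates 1 to 3, against 14.9, 6.96, 10.6 and 6.57 CPM in pulmonary replicates 1 to 4 and 10.1, 12.4, 7.98 and 15.6 CPM in aortic replicates 1 to 4. All autograft libraries were above all native libraries, by a narrow margin over aortic replicate 4. HMCN1 rose by a log2 fold change of 1.15 ± 0.32 against pulmonary sinus (edgeR adjusted p = 0.0424), and against aortic sinus it differed by 0.91 ± 0.32, which did not pass (adjusted p = 0.129). Per transcript length, in the authors' FPKM (fragments scaled to transcript length and library size), HMCN2 was 0.150 to 0.565 times HMCN1 in the autograft libraries, against 1.34 to 8.77 times in the native libraries. By FPKM, HMCN2 was thus the higher of the pair in 8 of 8 native libraries and in 0 of 3 autograft libraries, whose values chose HMCN2. In raw counts, which are not scaled to length, aortic replicate 1 held 130 of HMCN2 and 199 of HMCN1. Every other native library held more counts of HMCN2. Of the 5 hemicentin, fibulin and nidogen genes tested, 1 rose and 1 fell against pulmonary sinus. The one that fell was NID2, nidogen-2 of the basement membrane, at 122 ± 21.0 CPM in the autograft (SD, n = 3) and 184 ± 13.6 CPM in pulmonary sinus (SD, n = 4), a log2 fold change of -0.59 ± 0.14 (adjusted p = 0.0294). FBLN1, fibulin-1 and the most abundant of the list, averaged 1384 ± 459 CPM in the autograft (SD, n = 3) and 772 ± 305 CPM in pulmonary sinus (SD, n = 4) and did not pass (0.84 ± 0.31, adjusted p = 0.0979).

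**Figure D2:**
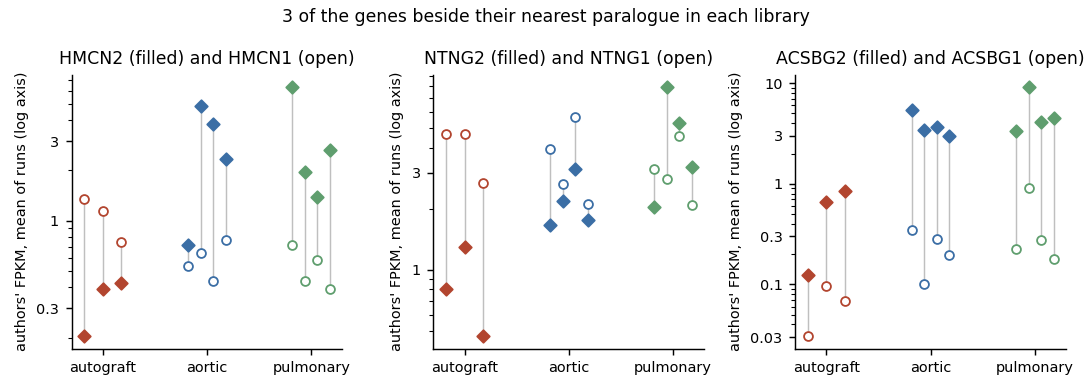
Authors' FPKM of HMCN2, NTNG2 and ACSBG2 beside their nearest relatives HMCN1, NTNG1 and ACSBG1, on a log scale, by group with the autograft on the left; filled diamonds are the member and open circles the relative, and a grey line joins the pair of a library, as the mean of its 2 runs. The order of HMCN2 and HMCN1 differs between autograft and native libraries, while ACSBG2 is above ACSBG1 in all 11 libraries.

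The copine gene was the member with the fewest counts. CPNE5 had 0.450, 0.524 and 0.681 CPM in autograft replicates 1 to 3, which is 8, 9 and 12 counts. It had 3.35, 4.65, 4.13 and 3.17 CPM in aortic replicates 1 to 4 and 3.28, 3.94, 12.6 and 3.14 CPM in pulmonary replicates 1 to 4. The native values lay between 3.14 and 4.65 CPM except for pulmonary replicate 3, which stood above them. The log2 fold change of the autograft was -3.36 ± 0.55 against pulmonary sinus and -2.78 ± 0.55 against aortic sinus. With libraries left out it lay between -3.58 and -2.64 against pulmonary sinus, highest without pulmonary replicate 3, and between -2.96 and -2.64 against aortic sinus. None of the 6 other copine genes tested passed against either native sinus with edgeR, although 1 had an unadjusted p under 0.05 and 1 was called by DESeq2 in each contrast. CPNE3, the most abundant copine, averaged 130 ± 51.9 CPM in the autograft (SD, n = 3) and 108 ± 12.2 CPM in pulmonary sinus (SD, n = 4), a log2 fold change of 0.27 ± 0.23 (adjusted p = 0.454).

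LSAMP was the member whose groups came closest. It had 1.46, 0.640 and 1.02 CPM in autograft replicates 1 to 3, against 2.23, 14.1, 7.98 and 5.32 CPM in aortic replicates 1 to 4 and 13.5, 14.7, 10.6 and 1.66 CPM in pulmonary replicates 1 to 4. Aortic replicate 1 and pulmonary replicate 4 lay just above the autograft, and the other native libraries lay between 5.32 and 14.7 CPM. Autograft replicate 1 held 26 counts (exact Poisson 95% interval 17.0 to 38.1) and pulmonary replicate 4 held 29 counts (19.4 to 41.6), so these 2 libraries did not differ beyond counting error. The log2 fold change of the autograft was -3.27 ± 0.79 against pulmonary sinus and -2.82 ± 0.78 against aortic sinus, the widest errors among the 6 genes. With libraries left out it lay between -3.62 and -3.02 against pulmonary sinus and between -3.14 and -2.29 against aortic sinus.

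Another IgLON gene was higher in the autograft. NTM, neurotrimin, averaged 1.02 ± 0.597 CPM in the autograft (SD, n = 3) and 0.135 ± 0.0543 CPM in pulmonary sinus (SD, n = 4), a rise of 2.86 ± 0.67 on the log2 scale (adjusted p = 0.0256) at a very low level in both groups. NEGR1, the most abundant of the 3 IgLON relatives tested, averaged 15.5 ± 6.72 CPM in the autograft and 6.45 ± 4.78 CPM in pulmonary sinus and did not pass (1.27 ± 0.49, adjusted p = 0.111). Of these 3 genes, 1 rose and 0 fell against pulmonary sinus, and 0 passed against aortic sinus, where 2 had an unadjusted p under 0.05 and DESeq2 called 1.

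Netrin-G2 was the member with the smallest difference from aortic sinus. NTNG2 had 3.21, 6.17 and 1.82 CPM in autograft replicates 1 to 3, against 7.91, 11.2, 15.7 and 8.49 CPM in aortic replicates 1 to 4 and 8.93, 43.9, 27.3 and 15.6 CPM in pulmonary replicates 1 to 4. Autograft replicate 2 lay near the lowest aortic library, and pulmonary replicates 2 and 3 lay above all the others. The log2 fold change of the autograft was -2.68 ± 0.57 against pulmonary sinus and -1.54 ± 0.55 against aortic sinus. With libraries left out it lay between -3.26 and -2.21 against pulmonary sinus and between -2.09 and -1.21 against aortic sinus. In the authors' FPKM, NTNG2 was 0.172 to 0.276 times its relative NTNG1 in the autograft libraries and 0.421 to 2.85 times in the native libraries. NTNG1 itself averaged 21.8 CPM in the autograft and 15.7 CPM in pulmonary sinus (0.47 ± 0.40, adjusted p = 0.450).

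Among netrins, netrin receptors and netrin-G ligands, 0 of 10 tested genes rose and 2 fell against pulmonary sinus. NTN1, the secreted guidance cue netrin-1, had 19.9, 22.5 and 27.7 CPM in autograft replicates 1 to 3, against 29.0, 53.0, 82.6 and 57.2 CPM in pulmonary replicates 1 to 4. The groups did not overlap, and pulmonary replicate 1 lay nearest to the autograft. NTN1 fell by 1.25 ± 0.28 on the log2 scale (adjusted p = 0.0222). NEO1, the netrin receptor neogenin and the most abundant of the list, was at 69.2 ± 4.52 CPM in the autograft (SD, n = 3) and 93.5 ± 8.17 CPM in pulmonary sinus (SD, n = 4), a log2 fold change of -0.44 ± 0.11 (adjusted p = 0.0368). LRRC4, a ligand of netrin-G2, averaged 2.41 CPM in the autograft and 5.66 CPM in pulmonary sinus and did not pass (-1.23 ± 0.80, adjusted p = 0.326). LRRC4 was added to the named genes for that role after its values were seen, as were NTNG1 and ACSBG1 as the nearest relatives of 2 members.

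ACSBG2 was low in all 3 autograft libraries. It had 0.337, 1.63 and 1.82 CPM in autograft replicates 1 to 3, against 12.02, 7.90, 7.46 and 5.32 CPM in aortic replicates 1 to 4 and 6.72, 20.6, 8.20 and 8.86 CPM in pulmonary replicates 1 to 4. Autograft replicate 1, with 6 counts, was lowest, and pulmonary replicate 2 was highest. The log2 fold change of the autograft was -3.13 ± 0.58 against pulmonary sinus and -2.69 ± 0.57 against aortic sinus. With libraries left out it lay between -3.49 and -2.65 against pulmonary sinus, highest without pulmonary replicate 2, and between -3.06 and -2.23 against aortic sinus.

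The counts of ACSBG2 are uncertain because the gene overlaps RFX2 in the RefSeq annotation, and whether counting used strand was not stated in any source used here. RFX2, a transcription factor known from cilia and sperm formation, averaged 26.9 ± 7.85 CPM in the autograft (SD, n = 3), 144 ± 41.5 CPM in aortic sinus and 128 ± 26.7 CPM in pulmonary sinus (SD, n = 4 each). It fell in the same contrasts, with log2 fold changes of -2.25 ± 0.28 against pulmonary sinus (adjusted p = 0.0042) and -2.42 ± 0.28 against aortic sinus (adjusted p = 0.00516). ACSBG2 was 0.946% to 8.86% of RFX2 in the autograft libraries, against 2.71% to 8.25% in aortic and 5.91% to 13.6% in pulmonary libraries. The share overlapped between the groups, and how far reads of one gene entered the count of the other was not tested. No other member overlaps a tested gene in that annotation.

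Other enzymes of fatty acid activation moved in both directions. Of 12 acyl-CoA synthetase genes tested, 1 rose and 1 fell against pulmonary sinus. ACSL5, which activates long-chain fatty acids, had 71.8, 53.9 and 21.5 CPM in autograft replicates 1 to 3, against 24.3, 9.36, 11.7 and 14.2 CPM in pulmonary replicates 1 to 4. Autograft replicate 3 lay below pulmonary replicate 1, so the groups overlapped, and ACSL5 rose by 1.72 ± 0.38 on the log2 scale (adjusted p = 0.0220). SLC27A5, a bile acid and very-long-chain acyl-CoA synthetase best known from liver, was at 18.5 ± 4.27 CPM in the autograft (SD, n = 3) and 35.4 ± 9.60 CPM in pulmonary sinus (SD, n = 4), a log2 fold change of -0.94 ± 0.23 (adjusted p = 0.0303). ACSL1, the most abundant of the list, differed by -0.01 ± 0.23 (adjusted p = 0.991). ACSBG1, the nearest relative, averaged 0.728 CPM in the autograft and 2.65 CPM in pulmonary sinus and did not pass (-1.86 ± 0.67, adjusted p = 0.0919). In the authors' FPKM, ACSBG2 was 4.10 to 12.4 times ACSBG1 in the autograft libraries and 10.2 to 34.4 times in the native libraries. The autograft ratios rest on few counts. Autograft replicates 1 to 3 held 6, 28 and 32 counts of ACSBG2 and 4, 19 and 15 counts of ACSBG1.

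HSD17B3 was the only member besides HMCN2 with a higher mean CPM in aortic than in pulmonary sinus. It had 1.01, 0.408 and 1.93 CPM in autograft replicates 1 to 3, against 10.9, 4.85, 6.54 and 12.2 CPM in aortic replicates 1 to 4 and 9.60, 5.77, 3.65 and 5.15 CPM in pulmonary replicates 1 to 4. Autograft replicate 3 was the highest autograft library, and pulmonary replicate 3 was the lowest native library. The log2 fold change of the autograft was -2.43 ± 0.54 against pulmonary sinus and -2.94 ± 0.55 against aortic sinus. With libraries left out it lay between -3.08 and -2.03 against pulmonary sinus and between -3.59 and -2.53 against aortic sinus, lowest in both without autograft replicate 3.

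Of 14 steroid dehydrogenases, reductases and receptors tested, 1 rose and 0 fell against pulmonary sinus. That gene was ESR1, estrogen receptor alpha, at 73.6 ± 29.4 CPM in the autograft (SD, n = 3) and 39.3 ± 11.5 CPM in pulmonary sinus (SD, n = 4), a log2 fold change of 0.90 ± 0.26 (edgeR adjusted p = 0.0497). That call was lost with the animal as a random replicate block in limma-voom (adjusted p = 0.0567) and when any of 9 single libraries, of 11, was omitted. HSD17B4, a peroxisomal enzyme of fatty acid oxidation and the most abundant of the list, averaged 75.4 ± 11.7 CPM in the autograft and 83.5 ± 7.39 CPM in pulmonary sinus (-0.15 ± 0.13, adjusted p = 0.467).

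Over all 6 lists, 65 relatives and partners were listed and 50 were tested. Against pulmonary sinus 4 rose and 4 fell, which is 8% each way, beside 6.05% of all genes tested called higher and 5.29% called lower. The counts of the single lists stand beside the same shares. The median log2 fold change of the relatives was 0.06, beside 0.00 over all genes tested and -3.16 over the members. Against aortic sinus edgeR called none of the 50, where 16 had an unadjusted p under 0.05 and DESeq2 called 6. The number of relatives called against pulmonary sinus, 8 with all libraries, changed when single libraries were left out. It was 6 without autograft replicate 3, aortic replicate 2 or aortic replicate 3, and 7 without aortic replicate 4. Over all genes tested, the 1699 calls became 522 without pulmonary replicate 2 and 505 without pulmonary replicate 3. None of the 50 was called without pulmonary replicate 2 or without pulmonary replicate 3, 1 was called without autograft replicate 2, 2 without autograft replicate 1, 4 without pulmonary replicate 4, 5 without aortic replicate 1 and 15 without pulmonary replicate 1. With each of the 11 libraries left out in turn, the edgeR adjusted p of NTM reached 0.0721 and that of ESR1 reached 0.168. In these 11 fits the call of ESR1 was lost in 9, those of HMCN1 and NEO1 in 7 each, and that of NID2 in 5. NTN1, ACSL5 and SLC27A5 lost theirs in 4 each, and NTM in 3.

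**Figure D3:**
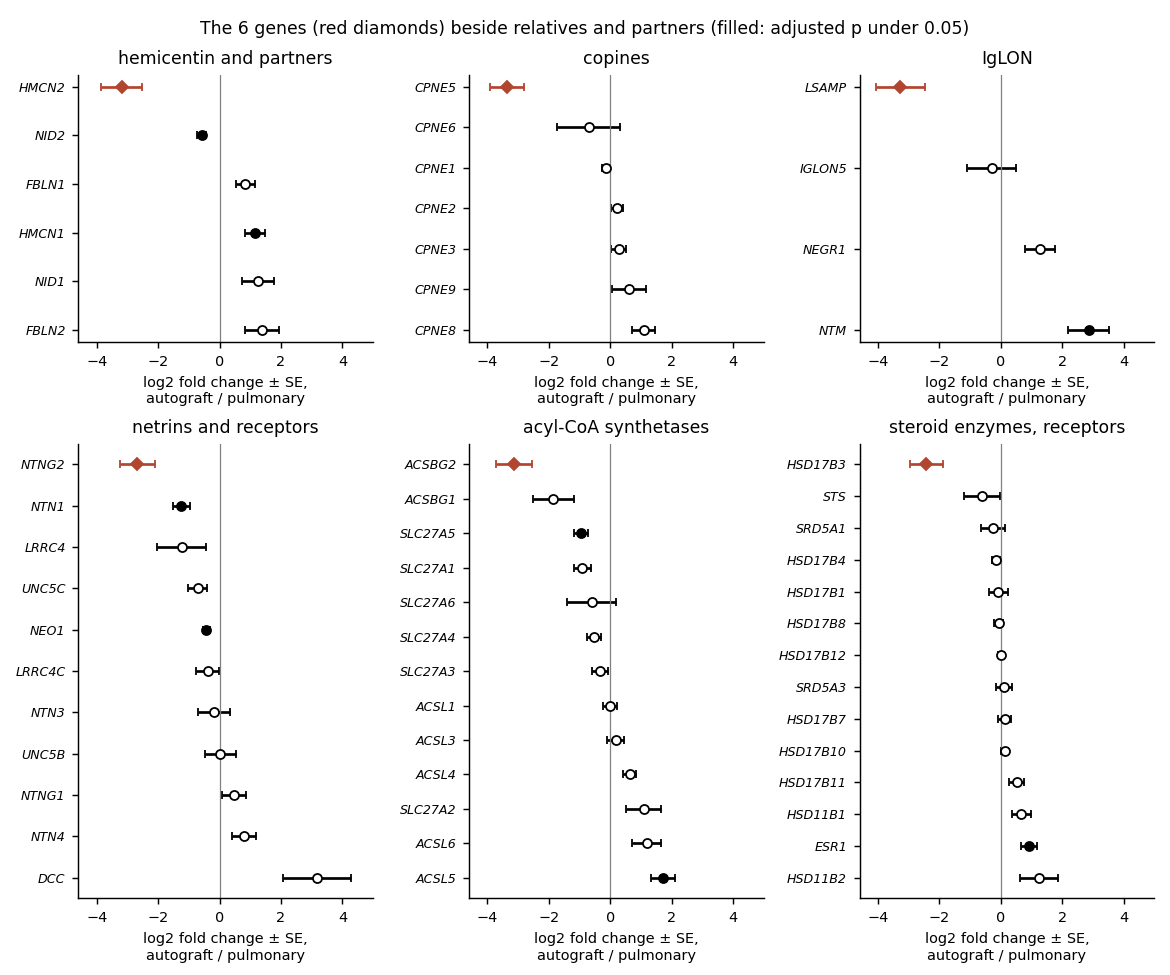
Log2 fold change ± SE of the autograft against pulmonary sinus for the 6 members (red diamonds, at the top of each panel) and their tested relatives and partners (circles, filled where the edgeR adjusted p was under 0.05). The members lie between -3.36 and -2.43, and the 8 filled circles lie between -1.25 and 2.86.

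The native sinuses gave the one contrast without autograft libraries, although their libraries had also served the contrasts that chose the genes. It asked whether the 6 genes differ between the native aortic and the native pulmonary wall, with the surgery label of aortic replicate 1 unresolved. None of the 6 was called by edgeR, the adjusted p rounded to 1 for each of them, and the aortic and pulmonary libraries overlapped for all 6. NTNG2 showed the largest difference, at 10.8 ± 3.56 CPM in aortic sinus and 23.9 ± 15.3 CPM in pulmonary sinus (SD, n = 4 each), a log2 fold change of -1.14 ± 0.48 (SE). It was the 1 member whose unadjusted p was under 0.05, and that p did not survive the adjustment over all genes. The log2 fold changes of the others were 0.51 ± 0.44 for HSD17B3, 0.06 ± 0.54 for HMCN2, -0.44 ± 0.46 for ACSBG2, -0.45 ± 0.62 for LSAMP and -0.59 ± 0.43 for CPNE5. A missed threshold with errors of this size does not show that the sinuses were alike. Without pulmonary replicate 3 the value of CPNE5 was 0.14, and without animal D3 that of HMCN2 was 0.93. Over all genes this contrast called 0% with edgeR, with 306 genes at an unadjusted p under 0.05, and DESeq2 also called 0.

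**Figure D4:**
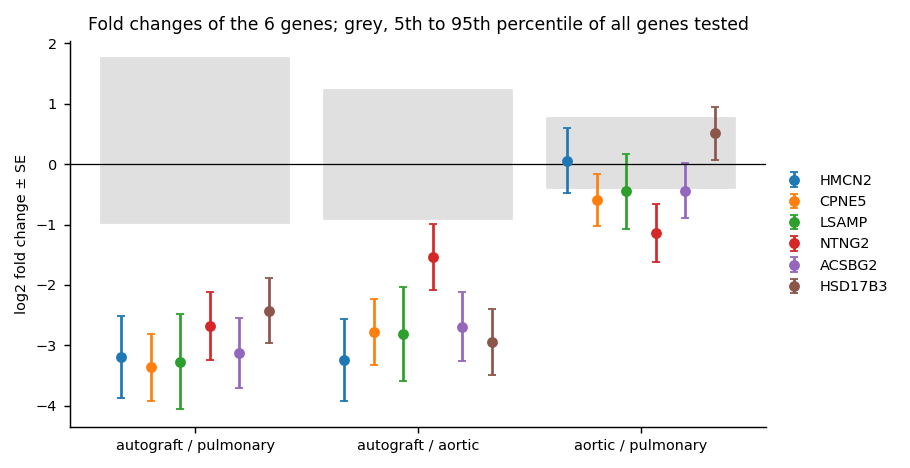
Log2 fold change ± SE of the 6 genes in the 3 contrasts, autograft against pulmonary, autograft against aortic and aortic against pulmonary sinus; grey bands span the 5th to 95th percentile of all 14979 genes. The members lie below the band in both autograft contrasts, between -3.36 and -1.54, and between -1.14 and 0.51 in the native contrast.

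By group mean, the autograft was lowest for all 6 genes. In CPM, CPNE5, LSAMP, NTNG2 and ACSBG2 were highest in pulmonary sinus, and HMCN2 and HSD17B3 in aortic sinus. The native neighbours in that order overlapped in each case, and the pulmonary values had taken part in choosing the members. For HMCN2 the order was reversed in the authors' FPKM, at 2.94 in aortic and 3.08 in pulmonary sinus. The autograft mean was 10.7% of the native mean for HMCN2, 11.6% for CPNE5, 11.9% for LSAMP, 13.1% for ACSBG2, 15.2% for HSD17B3 and 21.5% for NTNG2. Levels between genes can be compared per transcript length. In the authors' FPKM, LSAMP averaged 0.65 in the autograft and 6.72 in pulmonary sinus, the highest pulmonary level of the 6, and HSD17B3 averaged 0.32 in the autograft and 2.46 in pulmonary sinus, the lowest. The sources used here do not say how the authors computed FPKM, and genes with a raw count of 0 carry values above 0 in those tables.

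The members' profiles over the native libraries differed from each other in places. Averaged over the 6 genes, each centred on its own mean log2 CPM, autograft replicates 1 to 3 were at -2.24, -1.93 and -1.71, below the native range of 0.17 to 1.28. Aortic replicate 1 was the lowest native library and pulmonary replicate 2 the highest. Within aortic replicate 1, HMCN2, LSAMP and NTNG2 lay below their means over the 11 libraries, while CPNE5, ACSBG2 and HSD17B3 lay above. The low autograft values, which chose the members, are part of these means, so this split is not one among native libraries alone. Likeness was measured as the root mean square difference of centred log2 CPM over the 11 libraries, where a small value means a similar profile. Over all 11, which hold the autograft values that chose the members, the most similar pair was CPNE5 and NTNG2 at 0.82. CPNE5 and ACSBG2 followed at 0.83, and the least similar pair was NTNG2 and HSD17B3 at 1.37. Over the 8 native libraries alone, NTNG2 and ACSBG2 were closest at 0.63, and LSAMP and HSD17B3 were farthest apart at 1.39.

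By the same measure over all 11 libraries, which hold the autograft values that chose the members, the nearest profiles among all other genes tested were PAPLN (papilin, a matrix protein) and ATP2A3 (a calcium pump of the endoplasmic reticulum) for CPNE5, at 0.40 and 0.47, with 13.4 ± 5.12 CPM of PAPLN in the autograft (SD, n = 3) and 113 ± 36 CPM in pulmonary sinus (SD, n = 4). RIMBP2 and LIPH were nearest to NTNG2 at 0.51 and 0.59, LOC105612674 and CCDC13 to HSD17B3 at 0.52 and 0.56, and LOC101115732 and ADRA2B to ACSBG2 at 0.54 and 0.55. DIRAS1 and LOC105603157 were nearest to LSAMP at 0.60 and 0.73, and CCDC33 and STX1A to HMCN2 at 0.64 and 0.69. STX1A averaged 0.0573 CPM in the autograft and 0.492 CPM in pulmonary sinus, so its match rests on few counts. The median distance of a member to all genes lay between 1.26 and 1.58. With a single library left out, 5 to 11 of these 12 nearest genes were kept.

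Cell type markers moved between the same groups as the members. The summed level of 7 smooth muscle markers was 19877 to 41362 CPM in the autograft, 42519 to 61193 CPM in aortic sinus and 42869 to 73309 CPM in pulmonary sinus. Of these 7 markers 4 fell against pulmonary sinus and 2 against aortic sinus. Over all genes tested, edgeR called 5.29% lower and 6.05% higher against pulmonary sinus, and 1.43% lower and 0.948% higher against aortic sinus. The autograft mean of the summed level was 57.3% of the pulmonary mean and 62.9% of the aortic mean. MYOCD, the coactivator myocardin and one of the 7, was at 74.9 ± 20.9 CPM in the autograft (SD, n = 3) and 278 ± 71 CPM in pulmonary sinus (SD, n = 4), a larger difference than that of the sum, to which MYH11 and ACTA2 contribute most. The ratio of HMCN2, CPNE5, ACSBG2 and HSD17B3 to that sum was lower in all autograft libraries than in all native libraries. This is a description, since the autograft values chose the members. The share of all genes tested with such a ratio was not computed, so nothing is read from it. Per 10000 CPM of smooth muscle markers, HMCN2 was at 0.810 to 0.955 CPM in the autograft, against 1.15 to 10.1 CPM in aortic and 2.11 to 11.6 CPM in pulmonary sinus. The groups overlapped for LSAMP, at 0.181 to 0.736 CPM in the autograft, 0.390 to 3.21 CPM in aortic and 0.344 to 3.15 CPM in pulmonary sinus, and for NTNG2, at 0.439 to 1.74, 1.38 to 2.57 and 2.08 to 5.99 CPM in the same order.

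Since LSAMP and NTNG2 are known from nerve, markers of nerve sheath cells were set beside them. Their 5 detected markers summed to 50.8 to 86.1 CPM in the autograft, 50.1 to 226 CPM in aortic sinus and 51.6 to 88.8 CPM in pulmonary sinus, and 0 of 5 passed with edgeR in either autograft contrast, where 1 of 5 had an unadjusted p under 0.05 in each and DESeq2 called 0. Their median log2 fold change was -0.10 against pulmonary sinus and -1.10 against aortic sinus. The 6 T and natural killer cell markers summed to 37.8 to 47.6 CPM in the autograft, 4.67 to 10.7 CPM in aortic and 1.73 to 7.40 CPM in pulmonary sinus, and 5 of 6 rose against pulmonary sinus and 3 of 6 against aortic sinus. The 6 fibroblast markers summed to 8165 to 11408 CPM in the autograft, 4207 to 5496 CPM in aortic and 1961 to 6996 CPM in pulmonary sinus, with 2 of 6 higher in each contrast. Of 6 macrophage markers 3 rose, and of 6 endothelial markers 2 rose, against pulmonary sinus, and edgeR called none of either list against aortic sinus, where 3 of each had an unadjusted p under 0.05 and DESeq2 called 2 macrophage and 1 endothelial marker. Of 5 cardiomyocyte markers 1 fell against pulmonary sinus, and of 5 adipocyte markers edgeR called none, with 2 at an unadjusted p under 0.05 and 1 called by DESeq2 against pulmonary sinus. No marker that was counted was at 0 in every library, and the part of these cell types in the members' levels was not tested.

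**Figure D5:**
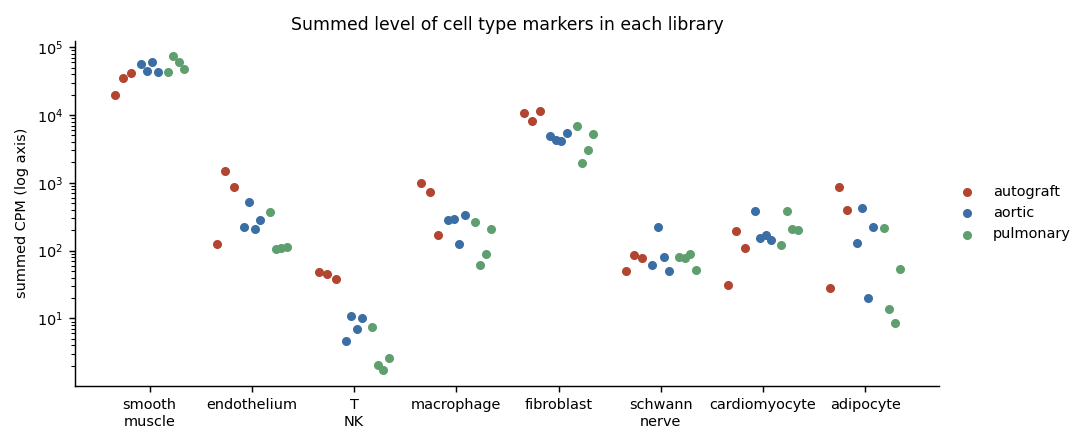
Summed CPM of the marker lists of 8 cell types per library, on a log scale, by group with the autograft on the left; each point is 1 library. Smooth muscle sums are lower in the autograft, at 19877 to 41362 CPM, and T and natural killer cell sums are higher, at 37.8 to 47.6 CPM.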

How the data were processed

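RNA of sheep sinus wall was extracted with TRIzol and made into TruSeq libraries, per the labels' protocols. Tools listed in the submitters' processing notes were featureCounts 1.5.3, STAR 2.5.2b, Bowtie2 2.3.3.1 and cutadapt, without saying what each did. Genome build, annotation and strand setting were not given in the sources used here. The deposited count tables, 1 per run, hold whole-number raw counts of 26200 symbols, and the deposited FPKM tables hold the authors' FPKM for 15272 and 15080 genes. FPKM were above 0 for 4505 values in run 1 and 2216 values in run 2 whose raw count was 0. A nameless row, at most 0.000522% of a library, was left out.

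Counts of both runs were added per library, since the chi-square per gene was 1.39 to 1.52 between runs of a library and 31.9 to 112 between libraries of a group. All 11 libraries entered 1 edgeR quasi-likelihood fit (R 4.3.3, edgeR 4.0.16) with TMM scaling, filterByExpr by group and no block, and p-values were Benjamini-Hochberg adjusted over 14979 genes. The SE is the log2 fold change over the square root of F. Log2 CPM carry a prior count of 2. DESeq2 1.42.0, limma 3.58.1 and the other alternatives are in the closing section. The fit was tested on simulated data. RefSeq gene names and neighbours came from assembly ARS-UI_Ramb_v3.0, which matched 18717 symbols; since the files' build is not given, no coordinates are printed.

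Named genes were the 6 members, every relative past an adjusted p of 0.05 in a contrast, the most abundant relative per list, and the 2 genes with the most similar profile per member. The result of 1 gene is not reported here. The members, lists and rule were chosen with earlier results of these data known. Animal names in the labels pair the native libraries. Deviations from the group mean correlated at -0.18 within D3, -0.13 within D4, 0.43 within D5 and 0.45 within D6. Across animals, D4 aortic with D3 pulmonary tissue gave 0.40, and D3 aortic with D4 pulmonary tissue gave 0.26.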

Additional observations from a re-analysis of the deposited data

Results flagged for a closer look

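In 2 of 38 native groups tested, for the 6 members and the other named relatives, 1 library lay far from the other 3, where chance gives about 1 group in 20. CPNE5 was at 12.55 CPM in pulmonary replicate 3 (animal D5), against 3.144 to 3.939 CPM in the other pulmonary libraries, and the gap took a share of 0.916 of the range, above Dixon's critical value at the 95% level. ACSBG2 was at 20.55 CPM in pulmonary replicate 2 (animal D4), against 6.723 to 8.861 CPM in the other pulmonary libraries, with a share of 0.845. Groups of 3 libraries, the autograft among them, were not tested this way.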

How the results depend on the processing

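No log2 fold change of a member changed its sign in an autograft contrast under any alternative. Since the autograft values chose the members, that and the calls of members in these contrasts are a description and no test. On the counts, members lay between -3.83 and -2.03 against pulmonary sinus and between -3.59 and -1.14 against aortic sinus. With log2(FPKM + 1), where low genes shrink, HMCN2 was -1.48 against pulmonary sinus. LSAMP was called in 13 of 20 count settings against pulmonary sinus and in 2 of 20 against aortic sinus, NTNG2 in 19 and 1, and CPNE5 in 20 and 11. No setting called a member between the native sinuses.

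Against pulmonary sinus 1699 genes were called, 2997 with DESeq2, 479 with the 2 groups alone, and 452 (without autograft replicate 2) to 2753 (without pulmonary replicate 1) with a library left out. Against aortic sinus 356 were called, 1469 with DESeq2, 110 without animal D3, and 25 (without autograft replicate 2) to 576 (without pulmonary replicate 1) with a library left out. Of the 50 relatives, 8 were called against pulmonary sinus, 16 with DESeq2, 1 with the 2 groups alone, 14 without animal D3 and 0 to 15 with a library left out. Against aortic sinus 0 were called, 6 with DESeq2, 1 in run 1 alone and 0 to 2 with a library left out. The cause of these moves was not tested.

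With the animal as a random replicate block in limma-voom (consensus correlation 0.121), 1611 genes and 8 relatives were called against pulmonary sinus and 361 genes and 0 relatives against aortic sinus. Of the members 4 of 6 were called against pulmonary sinus (6 of 6 with edgeR; HMCN2 and LSAMP were lost) and 1 of 6, HSD17B3, against aortic sinus (4 of 6 with edgeR), and ESR1 lost its call (adjusted p = 0.0567). With the animal as a fixed replicate block, 0 genes were called between the native sinuses. With 6 to 106 counts of a member per autograft library, counting error limits the autograft values.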

Other observations

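The nearest tested gene on each side of every member in the RefSeq annotation was looked up after the members' values were seen. Genes overlapping a member were not counted as neighbours. RFX2, which overlaps ACSBG2 and had log2 fold changes of -2.25 against pulmonary and -2.42 against aortic sinus, is therefore not among them. Of these 12 neighbours, 0 fell and 1 rose against pulmonary sinus, with a median log2 fold change of -0.01 and a range of -0.44 to 1.2. Of the 12, 3 had an unadjusted p under 0.05 and DESeq2 called 1. The one that rose was LOC105609854, next to ACSBG2 (log2 fold change 0.81 ± 0.23, edgeR adjusted p = 0.0436). EdgeR called none of the 12 against aortic sinus, where 3 had an unadjusted p under 0.05, DESeq2 called 1, the median was -0.04 and the range was -1.15 to 0.83.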
